A study of Mus musculus with 23 samples.

Results

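The epithelium of the embryonic lacrimal gland (LG) was set against the epithelium of the eyelid in mice at embryonic day 16.5 (E16.5). The arrays were chosen by their labelled tissue, cell type and stage, which gave 3 arrays of LG epithelium and 3 of eyelid epithelium, 6 of the 23 arrays of the series. In the LG group, epithelium had been separated from the mesenchyme of the gland. In the eyelid group, epithelium had been separated from the mesenchyme of the lid, and the dissected lid included the ocular conjunctiva, the mucosal lining on its inner side. All 6 arrays carry the background strain label B6/CL, and no mutation or treatment is labelled in either group. The 3 arrays of harderian gland (HG) epithelium of the same stage and strain, a second gland of the mouse orbit, are used only to show which differences another gland had too. The labels do not say how many embryos gave a sample or whether samples came from separate embryos. The p-values therefore measure a spread between arrays that may be technical. That spread was pooled within the 8 groups of all 23 arrays, mesenchyme and adult glands included, and is not that of these arrays alone. In dissected tissue, fewer cells of a type and less RNA per cell cannot be told apart.

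The LG arises as a bud of the conjunctival epithelium that grows into the mesenchyme beside the eye and branches. Fibroblast growth factor 10 (FGF10), made by that mesenchyme, acts on the receptor FGFR2 of the bud, and the transcription factors Pax6, Sox9, Sox10, Barx2 and Foxc1 are known from mouse work to act in its growth. At this stage the eyelids grow across the eye and fuse, the skin on their outer side stratifies and builds the cornified barrier, and hair follicles start as placodes under Wnt, ectodysplasin and hedgehog signals. The comparison sets a branching gland against a surface epithelium that shares its embryonic origin.

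Between 58.3 and 61.7 percent of the spots on the LG epithelium arrays and between 55.9 and 58.7 percent on the eyelid epithelium arrays were well above background. Levels are given as log2 signal relative to the 75th percentile of the array, so that a level of 0 equals that percentile. The lowest signal well above background lay at -5.46 to -4.86 on the LG arrays and -4.76 to -4.52 on the eyelid arrays. Arrays are listed in the order of slides 1, 2 and 3, each of which held 1 array of each group. Array levels correlated at 0.985 to 0.993 within LG epithelium, at 0.984 to 0.99 within eyelid epithelium and at 0.843 to 0.862 between them, over 14932 genes. The number of arrays limits the precision of each difference.

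Both groups carried the transcripts of epithelium that their labels give. The epithelial adhesion gene Epcam stood at 4.35, 4.22 and 4.66 in LG epithelium, against 2.06, 2.41 and 2.91 in eyelid epithelium, with means of -1.19 in LG mesenchyme and -0.53 in eyelid mesenchyme. E-cadherin (Cdh1) stood at 4.11, 3.63 and 4.08 in LG epithelium and at 4.09, 4.25 and 4.37 in eyelid epithelium, and its difference was not called. Summed over 39 general epithelial genes, on a scale where the 75th percentile of the array is 1, the level was 653 to 733 in LG epithelium and 2600 to 2850 in eyelid epithelium, against 20.7 to 36.3 in LG mesenchyme and 196 to 459 in eyelid mesenchyme. The mesenchymal list summed to 164 to 214 in LG epithelium and 239 to 337 in eyelid epithelium, against 2210 to 2770 in LG mesenchyme and 2340 to 3090 in eyelid mesenchyme. The plot of summed marker levels shows these and the other cell-type lists by array.

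**Figure D1:**
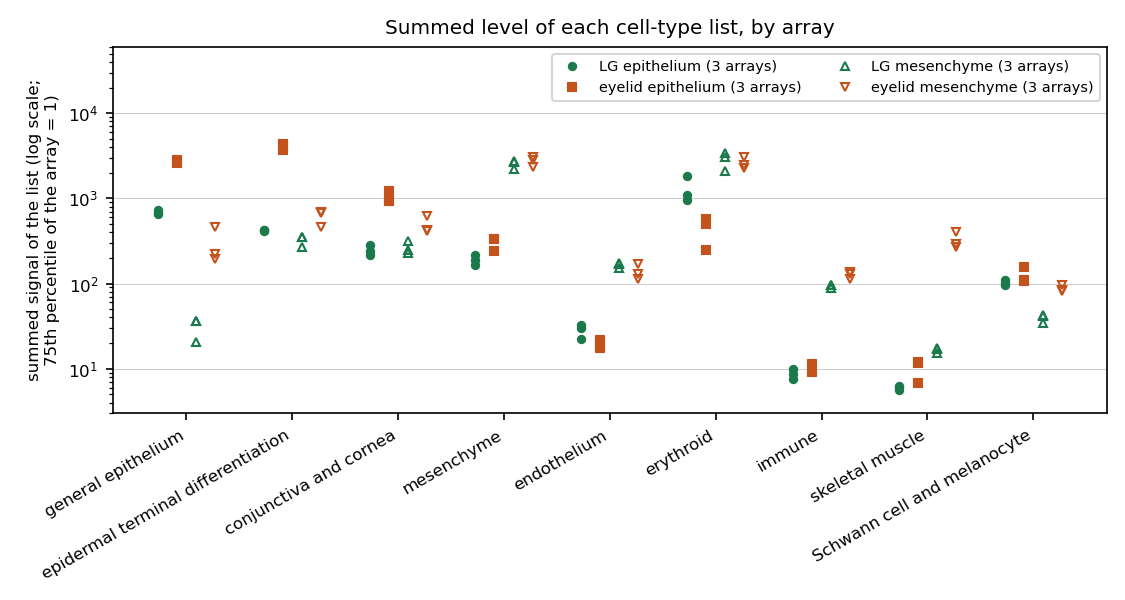
Summed linear signal of each cell-type gene list on each array (log scale, 75th percentile of the array = 1), for LG epithelium and eyelid epithelium (filled symbols) and for the mesenchyme of both tissues (open symbols), 3 arrays a group. The general epithelial list is lowest in LG mesenchyme at 20.7 to 36.3, and the epidermal list is highest in eyelid epithelium at 3660 to 4360.

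Of 14936 genes tested, 7268 (48.7 percent) differed between LG and eyelid epithelium at an adjusted p under 0.05. LG epithelium was higher for 4449 genes (29.8 percent) and lower for 2819 (18.9 percent), and with a difference of at least 2-fold it was higher for 1899 (12.7 percent) and lower for 1912 (12.8 percent). The shares of 29.8 percent higher and 18.9 percent lower are the scale for all list counts below. The median difference over all genes was 0.15 on the log2 scale. The share of calls that were higher, 61.2 percent here and 49.8 percent among calls of at least 2-fold, depended on the scaling: with the array median in place of the 75th percentile it was 67.3 and 62.4 percent, and without scaling 72.2 and 66.7 percent. Those scalings moved the median difference to 0.38 and 0.45. The groups did not overlap for 9066 genes (60.7 percent).

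**Figure D2:**
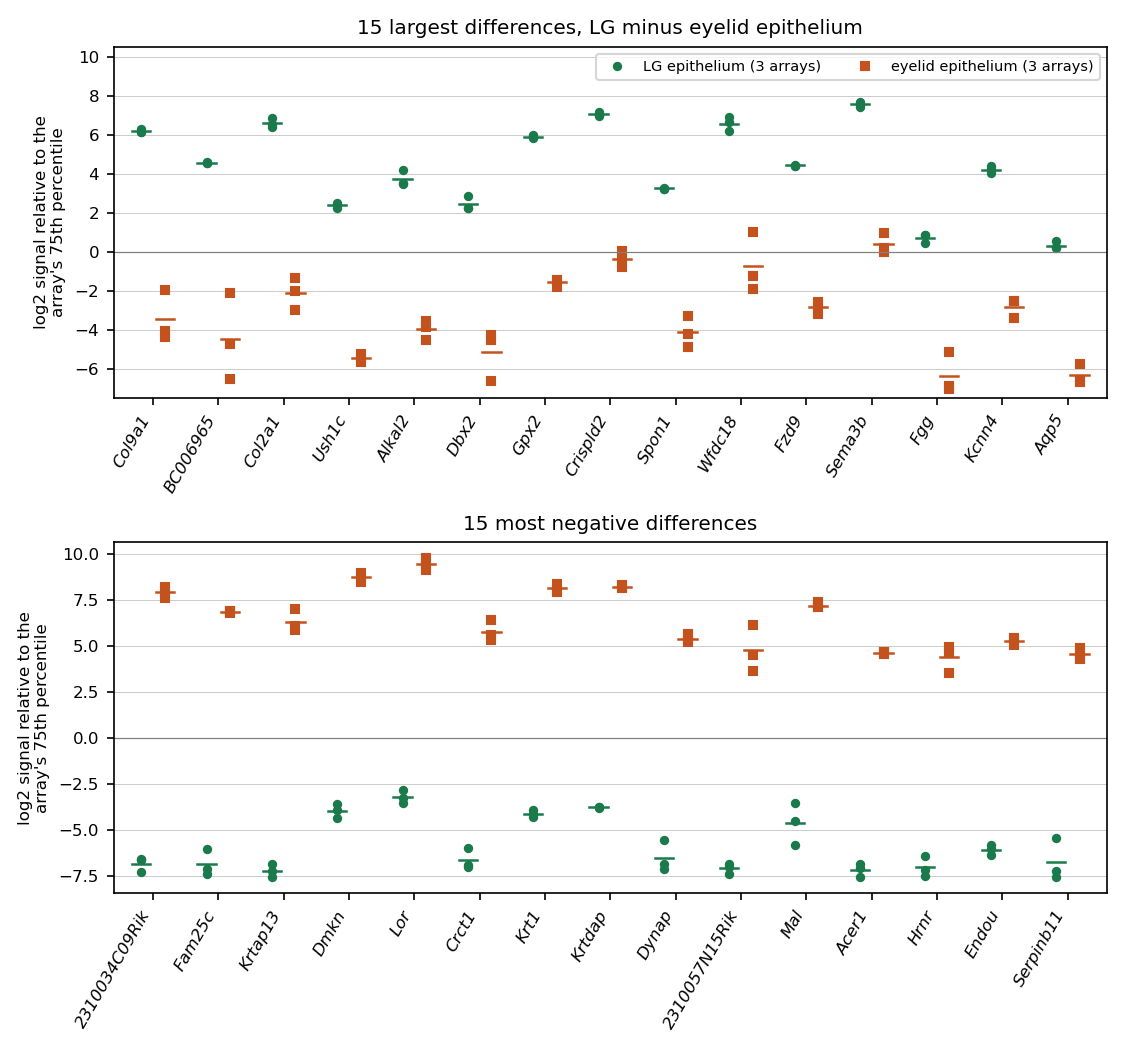
Log2 signal relative to the array's 75th percentile for the 15 genes with the largest called difference (top) and the 15 with the most negative (bottom), with 3 LG epithelium arrays (circles) to the left of 3 eyelid epithelium arrays (squares) and a bar at each mean. Only genes without overlap between the groups were eligible, so the arrays of the groups are apart for every gene by selection. LG arrays lie above eyelid arrays in the top panel, where Col9a1 differs by 9.67. They lie below them in the bottom panel, where 2310034C09Rik is at least 8520-fold lower.

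The genes that set LG epithelium highest above eyelid epithelium included components of a collagen network best known from cartilage. Col9a1, a chain of collagen IX, stood at 6.16, 6.14 and 6.28 in LG epithelium, against -1.99, -4.36 and -4.07 in eyelid epithelium, where 2 of the 3 arrays were well above background (9.67 ± 0.69 SE, adjusted p = 1.44e-09 by limma). Col2a1, the chain of collagen II, stood at 6.42, 6.53 and 6.87 in LG epithelium, against -2.03, -2.99 and -1.33 in eyelid epithelium (8.72 ± 0.53, adjusted p = 1.65e-10). Neither gene's groups came near to overlapping. The remaining chains of collagen IX were higher too, Col9a3 by 5.83 ± 0.40, with 1 of 3 eyelid arrays well above background, and Col9a2 by 4.60 ± 0.24. Cnmd (chondromodulin), a matrix glycoprotein of cartilage, was at least 27.4-fold higher, a bound, since it was not well above background on any eyelid array. The bounds used here set the bright group's mean against the lowest signal well above background on each array of the dim group, or the dim probe's own signal where that was higher. Where a gene was well above background on only some arrays of the dim group, their number is given and the difference rests in part on signal near background.

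Of the 15 measured genes of the cartilage-type list, 7 were higher in LG epithelium and 1 was lower. Among all genes the shares were 29.8 and 18.9 percent. Of the 15, 2 were well above background on no eyelid array. These, with Col9a1 and Col9a3, passed the filter only through the LG arrays and had to differ in this direction. The count therefore describes the genes measured and not the whole list. Cartilage's large proteoglycan Acan differed by -0.11 and the chondrogenic factors Sox5 and Sox6 by -0.32 and -0.47, none of them called. These 3, outside the naming rule, were picked after their values were seen. Hapln1, which links proteoglycans to hyaluronan, was the lower member, by -1.75 ± 0.50, with 1 of 3 LG arrays well above background. It passed the filter through the eyelid arrays alone. The levels of Col9a1 (0.32) and Col2a1 (0.72) in LG mesenchyme lay far below those in LG epithelium. HG epithelium had means of 5.31 for Col9a1 and 5.72 for Col2a1, and LG minus HG was 0.89 for Col9a1 (adjusted p = 0.737) and 0.88 for Col2a1 (adjusted p = 0.551).

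Other genes among the 15 largest differences code for ion channels, signalling proteins and secreted proteins. Kcnn4, the calcium-activated potassium channel of secretory epithelia, stood at 4.03, 4.38 and 4.22 in LG epithelium, against -2.54, -3.42 and -2.54 in eyelid epithelium (7.04 ± 0.45). Aqp5, the water channel of lacrimal and salivary acinar cells, stood at 0.53, 0.24 and 0.18 in LG epithelium and was not well above background on any eyelid array, so that it was at least 30.8-fold higher. Its other probe gave a difference of 3.29 against 6.66 for the probe used. Sema3b, a secreted guidance protein, stood at 7.44, 7.60 and 7.68 in LG epithelium, against 0.95, -0.02 and 0.18 in eyelid epithelium (7.21 ± 0.43). Fzd9, a Wnt receptor, differed by 7.25 ± 0.64, and Dbx2, a homeobox factor, by 7.61 ± 0.52, with 2 of 3 eyelid arrays well above background. Gpx2, a glutathione peroxidase of epithelia, differed by 7.46 ± 0.38. BC006965 differed by 9.03, with 1 of 3 eyelid arrays well above background, and Spon1, which codes for a matrix protein, by 7.38, with 2 of 3. The others were Wfdc18 (7.30), of the whey acidic protein family, and Fgg, a fibrinogen chain, which was at least 41.0-fold higher.

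Some of the leading genes separated LG from HG epithelium as well. Crispld2, a secreted cysteine-rich protein, stood at 7.00, 6.98 and 7.16 in LG epithelium, against -0.81, -0.30 and 0.04 in eyelid epithelium (7.40 ± 0.36, adjusted p = 7.82e-12). Its mean in HG epithelium was 2.80, and LG minus HG was 4.25 ± 0.36 (adjusted p = 3.03e-07). Alkal2, a ligand of the receptor kinase ALK, stood at 3.48, 3.5 and 4.18 in LG epithelium, against -4.53, -3.85 and -3.56 in eyelid epithelium, where 2 of the 3 arrays were well above background, and LG minus HG was 3.76 (adjusted p = 1.05e-05). Ush1c, the scaffold protein harmonin, was at least 129-fold higher than in eyelid epithelium, with its other probe at a difference of 5.23, and LG minus HG was 2.47 (adjusted p = 5.09e-05). For scale, 939 of the 14936 genes (6.29 percent) were called between LG and HG epithelium, 480 higher (3.21 percent) and 459 lower (3.07 percent) in LG. The comparisons with eyelid and with HG epithelium share the LG arrays.

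Of the 21 measured regulators of ocular gland development, 8 were higher in LG epithelium, 1 was lower and 12 were not called. For all genes the shares were 29.8 percent higher and 18.9 percent lower. Six2, a homeobox factor, stood at 4.51, 4.37 and 4.65 in LG epithelium, against 2.98, 2.66 and 3.22 in eyelid epithelium (1.56 ± 0.44, adjusted p = 0.00621). Its mean in HG epithelium was 0.92, and LG minus HG was 3.59 (adjusted p = 1.97e-05). Its relative Six4 was higher than in eyelid epithelium by 2.50 ± 0.16, and LG minus HG was 0.91 (adjusted p = 0.0012). Six2 and Six4 thus stood higher in LG epithelium than in both other epithelia.

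The SOXE factors were each higher in LG epithelium. Sox10, needed in mouse LG buds for acinar growth, stood at 6.08, 6.14 and 6.24 in LG epithelium, against 1.43, 1.42 and 2.03 in eyelid epithelium (4.52 ± 0.29). Sox9 stood at 2.64, 2.35 and 2.46 in LG epithelium, against 0.03, -0.34 and -0.16 in eyelid epithelium (2.64 ± 0.24), and Sox8 was at least 1.88-fold higher. Neither Sox9 (LG minus HG -0.48, adjusted p = 0.387) nor Sox10 (0.65, adjusted p = 0.269) was called between LG and HG epithelium. Foxc1 (1.77 ± 0.31), Eya2 (1.58 ± 0.22) and Tfcp2l1 (0.98 ± 0.36, adjusted p = 0.0331) were the other members called higher. Tfcp2l1 lost its call in 5 of 19 alternative settings, among them the fit without LG replicate 1 (0.66, adjusted p = 0.176).

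Several regulators known from the bud were not called. Pax6, the eye-field factor that the LG bud needs, stood at 2.26, 2.20 and 2.05 in LG epithelium, against 1.09, 0.93 and 1.54 in eyelid epithelium. The arrays did not overlap, but the difference of 0.98 ± 0.46 was not called (adjusted p = 0.0885), whereas the fit to the 6 arrays alone called it (adjusted p = 0.00444). Eya1 differed by 0.08 ± 0.24, the ETS factor Elf5 by 0.30 ± 0.47 and Foxc2 by 0.46 ± 0.34. Barx2 stood at 2.27, 2.17 and 1.98 in LG epithelium, against 1.2, 3.41 and 1.09 in eyelid epithelium, where the array of slide 2 stood apart from the others. Its difference was 0.24, with its other probe at 0.83, and it was called higher in 1 of 19 alternative settings (adjusted p = 0.0338 by limma). Runx2 was lower by -1.27 ± 0.31, and Runx1 (-0.56) and Runx3 (-0.57) were not called. Bhlha15 (Mist1), a factor of mature acinar cells, differed by -0.80 (adjusted p = 0.123), and Foxi1, Ascl3, Eya4 and Nkx2-3 were not called either. Foxi1 (-0.81, adjusted p = 0.0699) was called lower when the replicate number, which is also the slide, was a block (adjusted p = 0.0169).

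**Figure D3:**
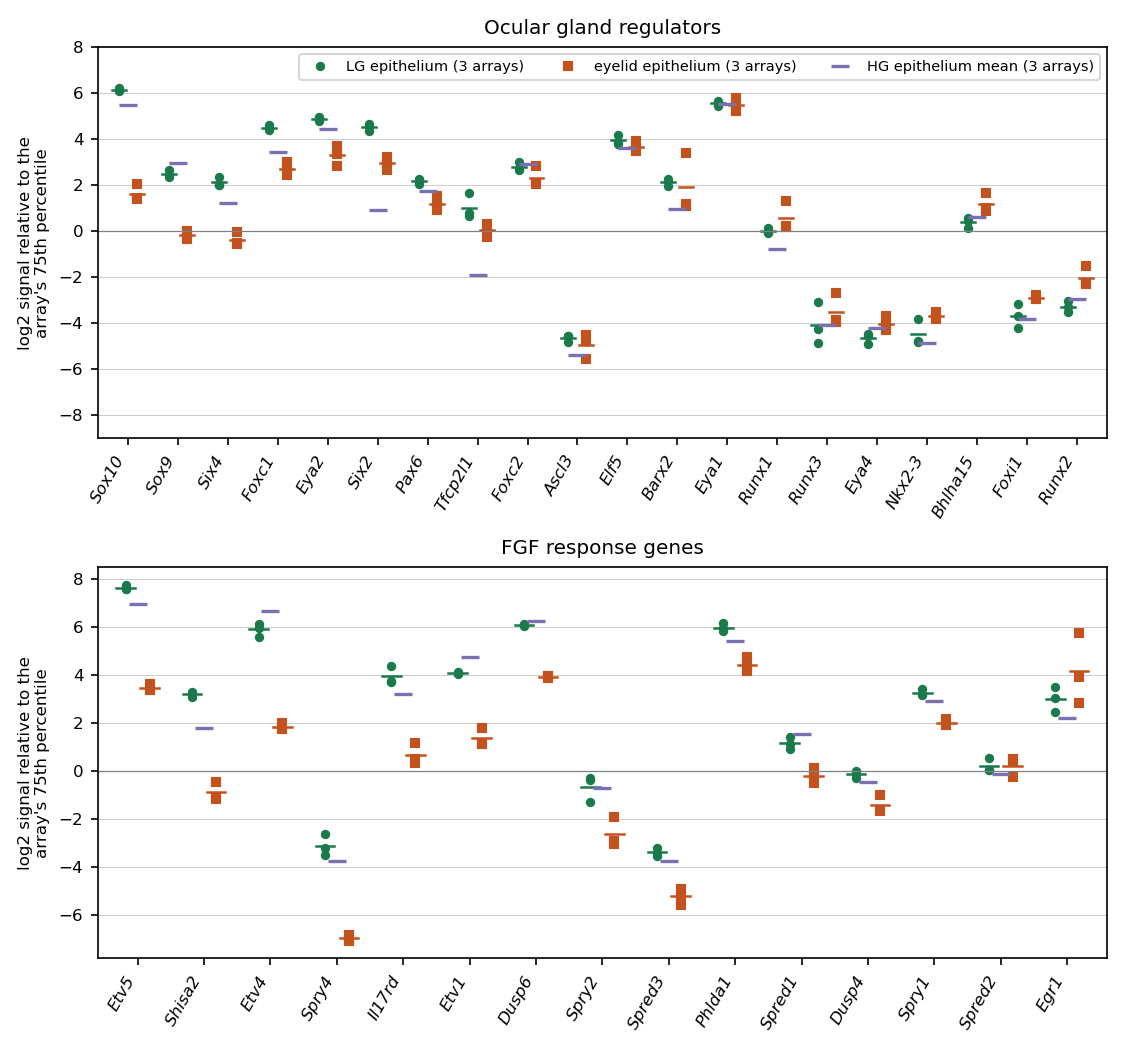
Log2 signal relative to the array's 75th percentile for 20 measured ocular gland regulators (top) and FGF response genes (bottom), ordered by difference, with 3 LG epithelium arrays (circles) left of 3 eyelid epithelium arrays (squares), bars at their means, and the mean of 3 HG epithelium arrays as a purple dash. Six2 and Six4 stand higher in LG than in both other epithelia, whereas Sox10, Sox9, Etv4 and Etv5 stand high in LG and HG epithelium.

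Genes that are switched on by FGF signalling were higher as a group. Of 15 measured FGF response genes 13 were higher in LG epithelium, against 29.8 percent of all genes, and none was lower at an unadjusted p under 0.05, with a median difference of 1.98 (1.56 with bounded genes at their bound), against 0.15 over all genes. Within slides 1, 2 and 3 that median was 1.99, 2.35 and 1.64. Spry4 and Spred3 were well above background on no eyelid array. They passed the filter only through the LG arrays and had to be higher. Etv5, an ETS factor induced by FGF receptors, stood at 7.58, 7.58 and 7.76 in LG epithelium, against 3.37, 3.37 and 3.61 in eyelid epithelium (4.19 ± 0.23, adjusted p = 3.77e-11). Its relatives Etv4 (4.05 ± 0.27) and Etv1 (2.70 ± 0.23) were higher as well.

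The feedback inhibitors of the pathway moved with these factors. Dusp6, a phosphatase of ERK, stood at 6.03, 6.10 and 6.12 in LG epithelium, against 3.97, 3.87 and 3.97 in eyelid epithelium (2.14 ± 0.21). Il17rd (Sef) differed by 3.26 ± 0.25, Shisa2, which holds back FGF and Wnt receptors, by 4.09 ± 0.20, and Spry2 by 1.98 ± 0.47. Spry4 was at least 2.87-fold higher and Spred3 at least 2.38-fold higher. Spry1 (1.25), Spred1 (1.36), Dusp4 (1.29) and Phlda1 (1.56) completed the called members. Spred2 (-0.01) and the immediate early gene Egr1 (-1.17 ± 0.69, adjusted p = 0.175) were not called. Shisa2 was the member called between LG and HG epithelium (1.40, adjusted p = 0.000122). LG mesenchyme had mean levels of 5.05 for Etv5, 3.20 for Etv4 and 3.56 for Dusp6, below LG epithelium in each case.

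The receptors and ligands of the pathway did not move together. Of 21 measured FGF receptors, ligands and heparan sulfate enzymes, 8 were higher and 6 lower, beside 29.8 and 18.9 percent of all genes. Fgfr2 stood at 0.60, 0.54 and 0.63 in LG epithelium, against 1.15, 1.26 and 1.28 in eyelid epithelium (-0.64 ± 0.11, adjusted p = 8.02e-05), a call that ended with median scaling (-0.41, adjusted p = 0.259) and without scaling (-0.33, adjusted p = 0.38). Fgfr3 stood at -0.56, -0.94 and -0.62 in LG epithelium, against 4.21, 4.04 and 3.83 in eyelid epithelium (-4.73 ± 0.34), with its other probe at -1.92. Fgfr1 was higher by 2.22 ± 0.28, with its other probes at 0.85 to 2.54, and the decoy receptor gene Fgfrl1 by 2.56 ± 0.16.

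Among ligands, Fgf1 was higher in LG epithelium by 2.99 ± 0.36, with its other probe at 1.53, whereas Fgf22, a keratinocyte ligand, was at least 8.79-fold lower and Fgf20, an early placode ligand, was lower by -1.07 ± 0.35, a call lost in 6 of 19 alternative settings. The FGF-binding protein Fgfbp1 stood at -0.54, -0.64 and -0.44 in LG epithelium, against 3.07, 3.48 and 3.8 in eyelid epithelium (-3.99 ± 0.47). Fgf10 itself stood at -1.67, -2.06 and -0.95 in LG epithelium, against -2.13, -4.12 and -4.24 in eyelid epithelium, and its mean in LG mesenchyme was 4.23. Its difference of 1.94 ± 0.70 (adjusted p = 0.0279) lost its call in 5 of 19 alternative settings, and the part of mesenchyme in it was not tested. Hs6st2, a heparan sulfate 6-O-sulfotransferase, was higher by 2.63 ± 0.19, and the syndecan gene Sdc1 was lower by -1.08 ± 0.17.

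Genes of the later secretory function of the gland went both ways, in shares near those of all genes. Of 35 measured genes of lacrimal secretion 12 were higher, against 29.8 percent of all genes, and 9 lower, against 18.9 percent. Of the 35, 2 were well above background on no eyelid array, so the filter fixed their direction. The higher ones were receptors and channels in part: Chrm3, the main muscarinic receptor of the gland, was at least 8.40-fold higher, Chrm1 differed by 2.74 ± 0.58, and Itpr1, a calcium release channel, by 2.52 ± 0.19. Both Chrm3 and Aqp5 exceeded HG epithelium as well. Chrm3 was at least 9.16-fold higher than there (adjusted p = 2.87e-06), since no HG array had it well above background, and LG minus HG was 2.31 for Aqp5 (adjusted p = 4.3e-05). Lcn2, a secreted lipocalin, stood at 4.90, 4.99 and 5.04 in LG epithelium, against -1.13, -0.71 and -0.45 in eyelid epithelium (5.74 ± 0.30), and LG minus HG was 3.44 (adjusted p = 3.47e-07).

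The lower ones included Rab3d, a GTPase of secretory granules, at 1.48, 1.25 and 1.56 in LG epithelium against 3.95, 3.97 and 4.18 in eyelid epithelium (-2.61 ± 0.19). Pigr, the receptor that carries IgA across epithelia, was lower by -1.85 ± 0.41 and the nucleotide receptor gene P2ry2 by -1.67 ± 0.26. The chloride channel gene Cftr was lower by -1.93 ± 0.66 (adjusted p = 0.0215) and lost its call in 6 of 19 settings. With median scaling or without scaling, 3 of the list's members were called lower in place of 9. The tear proteins Ltf (0.19) and Lyz2 (0.68) were not called, and these 2 genes were picked after their values were seen.

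The matrix and adhesion genes of branching epithelium differed in composition rather than in 1 direction. Of 37 measured genes 17 were higher in LG epithelium and 10 lower, beside 29.8 and 18.9 percent of all genes. The higher ones included integrins and chains of the general basement membrane. Itga9, a receptor for tenascin, stood at 3.84, 3.81 and 4.15 in LG epithelium, against -1.74, -1.53 and -0.85 in eyelid epithelium (5.31 ± 0.23). Itga4 differed by 4.34 ± 0.46 and, as LG minus HG, by 4.29 (adjusted p = 4.56e-06). Lama1 (3.42 ± 0.32), Lama4 (4.23 ± 0.19), Col4a1 (2.90 ± 0.15) and Col4a2 (2.94 ± 0.17) were higher too. The laminin and collagen chains that anchor the epidermis were lower: Lamb3 by -3.22 ± 0.30, Lama3 by -2.28 ± 0.27, Col17a1 of the hemidesmosome by -3.33 ± 0.45 and Col7a1 of the anchoring fibril by -2.25 ± 0.29. Fras1, whose loss leaves the eyelids fused over the eye in blebbed mice, stood at -3.02, -3.20 and -2.91 in LG epithelium, against 3.35, 3.53 and 3.12 in eyelid epithelium (-6.38 ± 0.19, adjusted p = 1.25e-14), and its partner Frem1 was lower by -3.98 ± 0.32.

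Proliferation genes were higher nearly throughout. Of 29 measured cell cycle genes 28 were higher in LG epithelium, against 29.8 percent of all genes. None was lower at an unadjusted p under 0.05. The median difference was 1.23, with medians of 1.09, 1.18 and 1.40 within slides 1, 2 and 3. Ccne1, the G1 cyclin E1, stood at 4.62, 4.71 and 4.98 in LG epithelium, against 2.51, 2.35 and 2.31 in eyelid epithelium (2.38 ± 0.18). Rrm2, which supplies deoxynucleotides, differed by 1.88 ± 0.15, the mitotic kinase gene Plk1 by 1.80 ± 0.26, and Aurka by 1.52 ± 0.25. Cdk1 differed by 1.94 ± 0.32, with its other probes at 0.77 to 2.57. Ccnd1, the cyclin D1 gene that many growth signals induce, stood at 7.32, 7.36 and 7.52 in LG epithelium, against 4.13, 4.05 and 4.50 in eyelid epithelium (3.17 ± 0.17). Of the cell cycle list 1 gene was called higher and none lower between LG and HG epithelium.

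On the other side, eyelid epithelium carried the terminal differentiation programme of the epidermis. Of 60 listed genes 42 were measured, and 37 of these were lower in LG epithelium, against 18.9 percent of all genes, and none was higher at an unadjusted p under 0.05. The median difference was -7.27 (-6.83 with bounded genes at their bound), and within slides 1, 2 and 3 it was -7.30, -7.59 and -7.16. Of the 42, 26 were well above background on all LG arrays. The others passed the filter only through the eyelid arrays and had to differ in this direction, so the count and the median describe the genes measured and not the whole list. The same holds for the barrier lipid, protease, keratin, Serpinb, conjunctival, hair placode and interleukin genes below. It also holds for the Wnt, hedgehog, BMP, eyelid closure, pigment cell and skeletal muscle genes. The cornified envelope gene Lor (loricrin) stood at -3.50, -3.23 and -2.80 in LG epithelium, against 9.74, 9.43 and 9.10 in eyelid epithelium (-12.60 ± 0.43, adjusted p = 9.84e-14). Krt1, the type II keratin of suprabasal keratinocytes, stood at -4.31, -4.14 and -3.92 in LG epithelium, against 8.08, 8.33 and 7.93 in eyelid epithelium (-12.23 ± 0.29). The secreted keratinocyte proteins Dmkn (-12.65 ± 0.52) and Krtdap (-11.97 ± 0.57) differed as far. The LG and eyelid arrays of each of these genes lay more than 10 log2 units apart.

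Several genes could be bounded only, since no LG array had them well above background. Crct1 was at least 1920-fold lower, Hrnr (hornerin) at least 734-fold lower and Krt77 at least 529-fold lower in LG epithelium. The largest bounds belonged to 2310034C09Rik, at least 8520-fold lower, Fam25c, at least 4040-fold lower, and Krtap13, of a family of hair keratin-associated proteins, at least 2780-fold lower. 2310034C09Rik stood at -7.27, -6.58 and -6.64 in LG epithelium, against 7.92, 8.21 and 7.61 in eyelid epithelium. Dynap and Endou were at least 1460-fold and 1350-fold lower, and the membrane protein gene Mal differed by -11.79 ± 0.84, with 2 of 3 LG arrays well above background.

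The 5 members of the list that were not called were Krt2, Calml4, Lelp1, Sprr2a2 and Tgm3, named after their values were seen. For Sprr2a2 the probe used stood at a mean of 8.63 in LG epithelium and 8.84 in eyelid epithelium, and as high in LG mesenchyme (8.23), while its other probe gave a difference of -8.98. Sprr2 genes are near-identical copies, so a probe cannot always be tied to a single gene. The other probe of Tgm3 gave -4.69, against 0.39 for the probe used. The summed level of the whole list, 409 to 427 in LG epithelium against 3660 to 4360 in eyelid epithelium, includes that bright Sprr2a2 probe.

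The same genes lie beside each other on the chromosomes, by their order in the RefSeq gene table. In the run from Tchhl1 to Lor on chromosome 3, the epidermal differentiation complex, 24 of 27 tested genes were lower in LG epithelium and none was called higher. In the run from Klk4 to Klk14 on chromosome 7, which holds kallikrein proteases of the skin, 8 of 10 were lower and 1, Klk6, was higher. In the run from Serpinb5 to Serpinb8 on chromosome 1, 9 of 10 were lower and none was called higher. In the type II keratin cluster from Krt80 to Krt18 on chromosome 15, 18 of 24 were lower, and the 2 higher genes were Krt8 and Krt18. In the type I keratin cluster from Krt222 to Krt42 on chromosome 11, 18 of 35 were lower and 1, Krtap4-8, was higher. These runs were chosen with the values known, and 18.9 percent of all genes were lower and 29.8 percent higher.

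The promoters of 4 of these lower genes and of 1 gene of the opposite direction are shown because these 4 hold matches to a pair of short motifs near the start site, as some but not most of the lower genes do. Each line gives 250 bases before and 50 bases after the start of the gene, 5′ to 3′ on the gene's strand, from RefSeq, build GRCm38.p6. Capitals mark matches, on either strand, to TGANTCA, the core that AP-1 factors bind, and to the TATA box TATAAA.
Lor: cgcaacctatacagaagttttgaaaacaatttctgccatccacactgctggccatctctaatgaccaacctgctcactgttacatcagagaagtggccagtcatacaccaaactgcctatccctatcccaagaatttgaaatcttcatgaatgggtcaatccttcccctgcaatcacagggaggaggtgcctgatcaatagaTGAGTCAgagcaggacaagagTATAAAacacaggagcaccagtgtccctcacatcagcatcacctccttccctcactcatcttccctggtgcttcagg
Ivl: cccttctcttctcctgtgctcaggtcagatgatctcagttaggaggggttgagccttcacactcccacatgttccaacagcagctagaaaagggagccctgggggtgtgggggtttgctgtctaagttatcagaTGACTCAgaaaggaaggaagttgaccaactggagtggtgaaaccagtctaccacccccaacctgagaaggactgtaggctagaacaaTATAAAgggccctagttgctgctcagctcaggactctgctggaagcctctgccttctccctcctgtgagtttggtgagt
Sprr1b: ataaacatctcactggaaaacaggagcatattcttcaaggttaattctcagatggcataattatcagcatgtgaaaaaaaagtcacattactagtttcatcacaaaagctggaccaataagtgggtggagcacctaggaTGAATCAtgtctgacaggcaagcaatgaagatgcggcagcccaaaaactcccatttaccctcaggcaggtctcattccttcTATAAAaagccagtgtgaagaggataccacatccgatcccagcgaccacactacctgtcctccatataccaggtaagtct
Krtdap: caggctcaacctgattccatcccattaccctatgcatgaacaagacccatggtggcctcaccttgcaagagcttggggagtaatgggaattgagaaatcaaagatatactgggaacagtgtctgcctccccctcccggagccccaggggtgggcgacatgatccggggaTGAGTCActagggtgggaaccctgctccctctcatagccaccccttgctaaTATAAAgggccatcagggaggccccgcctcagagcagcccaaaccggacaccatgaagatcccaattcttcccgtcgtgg
Crispld2: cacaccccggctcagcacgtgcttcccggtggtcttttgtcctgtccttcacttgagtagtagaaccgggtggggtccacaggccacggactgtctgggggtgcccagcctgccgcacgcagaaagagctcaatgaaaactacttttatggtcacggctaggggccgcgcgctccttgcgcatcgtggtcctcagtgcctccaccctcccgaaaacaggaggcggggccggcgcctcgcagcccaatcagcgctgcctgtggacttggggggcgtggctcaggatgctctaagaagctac

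The promoter of Lor lies at chr3:92083093-92083392 (minus strand), that of Ivl at chr3:92573686-92573985 (minus strand), that of Sprr1b at chr3:92438730-92439029 (minus strand), that of Krtdap at chr7:30787655-30787954 (plus strand) and that of Crispld2 at chr8:119992188-119992487 (plus strand). Ivl (involucrin) and Sprr1b, both cornified envelope precursors, were picked for their promoters after their values were seen: Ivl was at least 141-fold lower and Sprr1b at least 513-fold lower in LG epithelium. In these 4 genes the TATA box starts 27, 29, 30 and 30 bases before the start site in the order Lor, Ivl, Sprr1b and Krtdap, and the TGANTCA match starts 48, 116, 111 and 81 bases before it.

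Crispld2, the gene 7.40 higher in LG epithelium, has neither motif in this window. Among 30 of the 37 lower epidermal genes with a promoter in the table, 10 (33.3 percent) held TGANTCA and 10 (33.3 percent) held TATAAA. Among all 11854 tested genes with a promoter there, 6.62 percent held TGANTCA and 10.2 percent held TATAAA. Of the FGF response genes called higher, 9 had a promoter in the table, none with TGANTCA and 1, Etv1, with TATAAA. A match is a run of letters and does not show that a factor binds there, and the motifs were searched with the results known.

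Genes that make the lipid barrier of the skin were lower in LG epithelium along with the envelope genes. Of 27 measured members 23 were lower and 1, the ceramide synthase gene Cers4, was higher by 1.31 ± 0.19, with a median of -3.42. Acer1, an alkaline ceramidase of the epidermis, was at least 870-fold lower, Abca12, the lipid transporter of lamellar granules, at least 142-fold lower, and Sptlc3, of the first step of sphingolipid synthesis, at least 148-fold lower. Alox12b, a lipoxygenase of the cornified lipid envelope, stood at -4.43, -3.17 and -4.79 in LG epithelium, against 4.43, 4.87 and 4.06 in eyelid epithelium (-8.58 ± 0.50), with its other probe at -2.92.

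Skin proteases and their inhibitors showed the same direction, with 24 of 32 lower and 2 higher (median -4.80, or -3.88 with bounded genes at their bound). Spink5, the inhibitor of epidermal kallikreins, stood at -6.99, -6.84 and -7.33 in LG epithelium, against 4.0, 4.37 and 4.18 in eyelid epithelium, and was at least 642-fold lower. Its target protease Klk5 was at least 588-fold lower. St14 (matriptase), a membrane protease of many epithelia, was higher by 0.99 ± 0.33 and Klk6 by 2.49 ± 0.52, with 1 of 3 eyelid arrays well above background. Of 18 measured Serpinb genes 11 were lower and none was called higher by limma, with 1 higher at an unadjusted p under 0.05. Serpinb11 was at least 824-fold lower, and its mean in HG epithelium was -0.82, so that LG was at least 19.9-fold lower than HG epithelium (adjusted p = 7.06e-05).

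Of 22 transcription factors of epidermal differentiation 16 were lower and 1 was higher, Cebpb (0.68 ± 0.24), whose call was lost in 6 of 19 alternative settings. Hopx, a homeodomain cofactor, stood at -0.72, -1.06 and -1.39 in LG epithelium, against 4.97, 5.29 and 5.37 in eyelid epithelium (-6.26 ± 0.26). Klf4, which the skin barrier needs, was lower by -4.54 ± 0.26 and Ovol1 by -3.95 ± 0.36. Trp63, the master factor of stratified epithelia, stood at 3.39, 2.98 and 3.03 in LG epithelium, against 4.86, 4.72 and 4.44 in eyelid epithelium. Its difference of -1.54 ± 0.63 was at the threshold (adjusted p = 0.0495), was not called in 13 of 19 alternative settings, and was 0.05 at its other probe.

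Of 45 measured Krt genes 33 were lower in LG epithelium, and Krt8 and Krt18, a keratin pair of simple epithelia, were higher. The direction did not follow the type of epithelium, since Krt7, another keratin of simple and glandular epithelia, stood at 1.25, 1.01 and 0.77 in LG epithelium, against 5.53, 5.71 and 5.99 in eyelid epithelium (-4.73 ± 0.53). Krt19, of simple and ductal epithelia, was lower by -3.49 ± 0.73. Krt18 stood at 7.81, 7.66 and 7.66 in LG epithelium, against 6.16, 5.99 and 6.81 in eyelid epithelium (1.39 ± 0.44, adjusted p = 0.0148). Krt8 stood at 5.42, 5.48 and 4.80 in LG epithelium, against 4.13, 3.52 and 4.18 in eyelid epithelium (1.29 ± 0.44, adjusted p = 0.0214). Both calls ended without slide 1 (Krt18 1.25, adjusted p = 0.157, and Krt8 1.29, adjusted p = 0.122). In all, Krt8 lost its call in 4 of 19 alternative settings and Krt18 in 2.

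The basal pair Krt5 and Krt14 was present in both tissues at unequal levels. Krt5 stood at 5.34, 5.13 and 5.24 in LG epithelium, against 9.52, 9.26 and 9.28 in eyelid epithelium (-4.11 ± 0.49). Krt14 stood at 4.10, 4.05 and 4.40 in LG epithelium, against 7.53, 7.76 and 8.14 in eyelid epithelium (-3.63 ± 0.44). Neither was called between LG and HG epithelium. Krt15, of basal cells, was lower by -6.06 ± 0.75 and Krt10, the partner of Krt1, by -8.09 ± 0.32, with its other probe at -11.93. Desmosomal genes of stratified epithelium followed, with Pkp1 lower by -6.92 ± 0.32, Dsc3 by -4.96 ± 0.27 (1 of 3 LG arrays well above background) and Dsg3 at least 30.6-fold lower.

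**Figure D4:**
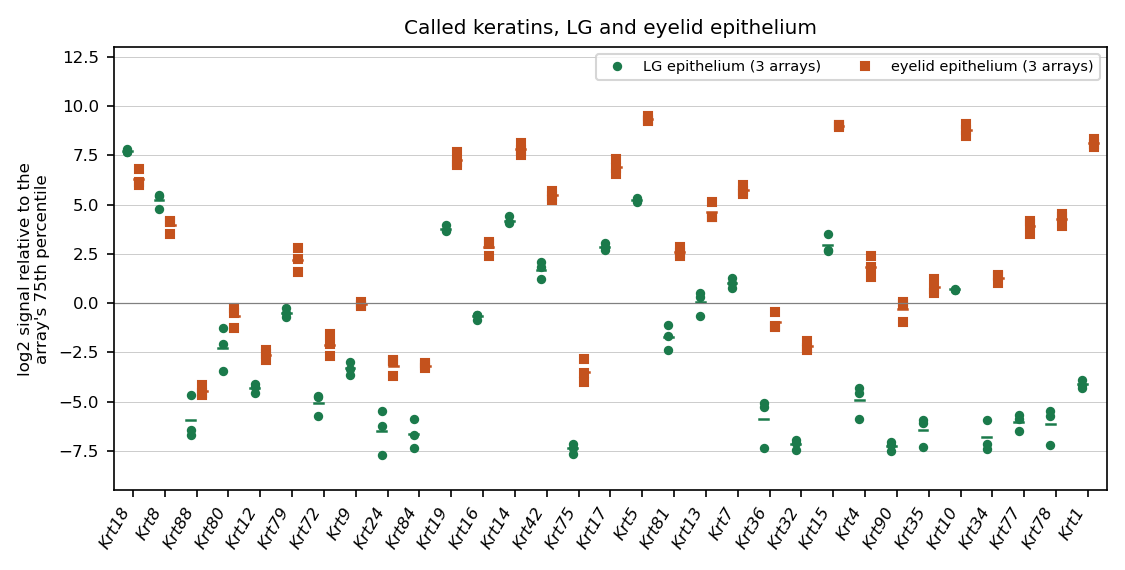
Log2 signal relative to the array's 75th percentile for the keratins called between the tissues, ordered by difference, with 3 LG epithelium arrays (circles) left of 3 eyelid epithelium arrays (squares) and bars at the means. LG arrays lie above eyelid arrays only for Krt18 and Krt8 among the keratins plotted, and Krt1, at the right, differs by -12.23.

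Of the 39 genes of the general epithelial list, 18 were lower and 6 higher, beside 18.9 and 29.8 percent of all genes. The higher ones were Epcam (1.95 ± 0.51), the claudin genes Cldn3 (1.21, a call lost in 7 of 19 alternative settings) and Cldn7 (1.55), St14, Krt8 and Krt18. Without slide 1, 1 of the list's genes was called higher in place of 6. Claudins, which seal tight junctions, comprised 8 higher and 3 lower of 18 measured genes, beside 29.8 and 18.9 percent of all genes. Of the 18, 17 were well above background on all LG arrays and 2 on no eyelid array. The filter fixes the direction of genes that passed through 1 group alone. Cldn22 was at least 31.7-fold higher, Cldn10, which forms ion-conducting junctions, stood at 1.63, 1.67 and 1.90 in LG epithelium, against -2.35, -2.40 and -2.04 in eyelid epithelium (4.0 ± 0.20), and Cldn9 differed by 1.96 ± 0.43. Cldn1, the claudin of the epidermal barrier, was lower by -3.71 ± 0.31.

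Genes of conjunctiva and cornea were also mostly lower in LG epithelium, 19 of 27 measured, with 5 higher and a median of -3.16 (-2.90 with bounded genes at their bound). Ly6d stood at -1.88, -2.39 and -2.74 in LG epithelium, against 7.96, 7.93 and 8.19 in eyelid epithelium (-10.37 ± 0.54). Aqp3, the glycerol and water channel of stratified epithelia, was lower by -7.91 ± 0.46. The uroplakin gene Upk1b (-8.45 ± 0.80), Psca (-8.39 ± 0.87) and Krt4 (-6.77 ± 0.99), the keratin of mucosal surfaces, were lower too, with 1, 1 and 2 of 3 LG arrays well above background, and Upk3b was at least 47.4-fold lower. The higher members were Aqp5, which the list shares with that of lacrimal secretion, Capn6 (2.88 ± 0.20), Spdef (1.56 ± 0.25), a factor of goblet cells, Tkt (0.82) and Aldh3a1 (0.58, a call lost in 8 of 19 alternative settings).

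Of 29 measured hair placode genes 19 were lower in LG epithelium and 1, Ccn2, was higher. Lef1, the nuclear effector of Wnt signalling in placodes, stood at -5.14, -5.85 and -5.24 in LG epithelium, against 3.11, 3.46 and 2.63 in eyelid epithelium (-8.48 ± 0.41, adjusted p = 6.48e-12), with 1 of 3 LG arrays well above background. Dkk4, a Wnt target of placodes, differed by -7.35 ± 0.50, also with 1 of 3. Shh, the hedgehog ligand of the placode, was at least 11.7-fold lower, Hoxc13 at least 16.3-fold lower and Foxn1 at least 31.8-fold lower. HG epithelium had more of some of these: Lef1 averaged 0.26 and Dkk4 1.07 there, with LG minus HG at -5.67 (adjusted p = 4.67e-08) for Lef1 and -6.73 (adjusted p = 5.73e-08) for Dkk4.

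Of 14 measured Wnt ligand genes, 12 of them well above background on all LG arrays, 11 were lower in LG epithelium. None was higher at an unadjusted p under 0.05, and the median was -3.05 (-2.76 with bounded genes at their bound). Wnt3 stood at -7.24, -7.09 and -7.58 in LG epithelium, against 1.51, 1.61 and 1.16 in eyelid epithelium, and was at least 94.9-fold lower. Wnt7b was lower by -5.37 ± 0.56, Wnt10a, which skin appendages and teeth need, by -3.90 ± 0.54 and Wnt16 by -4.05 ± 0.58, with its other probe at -7.24. Of 18 measured Wnt response genes, 15 of them well above background on all LG arrays, 8 were lower and 2 higher. The feedback gene Axin2 stood at -3.43, -4.73 and -3.17 in LG epithelium, against -0.37, -1.17 and -0.95 in eyelid epithelium (-2.94 ± 0.37), with 2 of 3 LG arrays well above background. Sp5 (-4.41), Apcdd1 (-3.96) and Wif1 (-4.83) were lower as well, and the higher members were Ccnd1 and Dkk2 (1.16, adjusted p = 0.0363). The groups of Dkk2 overlapped, and its call was lost in 6 of 19 alternative settings.

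Between LG and HG epithelium 8 of the 18 Wnt response genes were called lower in LG, with Sp5 at -5.52 (adjusted p = 2.09e-08) and Axin2 at -2.04 (adjusted p = 0.0013). Frizzled receptors differed by member. Fzd9 was higher in LG epithelium by 7.25, as given above, whereas Fzd10 stood at -1.84, -2.74 and -2.55 in LG epithelium, against 5.02, 4.97 and 4.50 in eyelid epithelium (-7.21 ± 0.32). Sfrp1, a secreted Wnt antagonist that mesenchyme and epithelium make, was higher by 3.32 ± 0.21.

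Readouts of hedgehog and BMP signalling were lower in part. Gli1, the hedgehog target and effector, stood at -3.39, -3.35 and -2.91 in LG epithelium, against 3.88, 3.59 and 3.29 in eyelid epithelium (-6.80 ± 0.37, adjusted p = 2.77e-11). The receptor gene Ptch1 (-2.81 ± 0.33), which the pathway induces, was lower too, and Hhip was at least 3.39-fold lower. In all, 5 of 9 hedgehog genes were lower and 1, Sfrp1, was higher, beside 18.9 and 29.8 percent of all genes. Gli1 averaged 1.11 in LG mesenchyme and 3.36 in eyelid mesenchyme.

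Of 10 BMP response genes 5 were lower and 2 higher, beside 18.9 and 29.8 percent of all genes. Id1 stood at 0.20, -0.29 and -0.22 in LG epithelium, against 4.67, 4.12 and 4.78 in eyelid epithelium (-4.63 ± 0.37), and Id3 was lower by -3.29 ± 0.30, while Id2 (1.65 ± 0.31) and Id4 (2.08 ± 0.39) of the same family were higher. Id1 and Id3 were lower than in HG epithelium as well, by -2.71 (adjusted p = 7.44e-05) and -2.67 (adjusted p = 7.57e-06). The ligand genes Bmp2 (-3.97 ± 0.38) and Bmp4 (-3.19 ± 0.33) were lower, and Bmp7, an epithelial ligand of branching organs, differed by 0.58 ± 0.18 in the other direction.

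Several homeobox genes of position were lower in LG epithelium. Of 12 measured Hox genes 9 were lower in LG epithelium and none was higher at an unadjusted p under 0.05, with a median of -4.92 (-3.04 with bounded genes at their bound). Only 12 of 41 Hox genes passed the filter, 10 of them through the eyelid arrays alone, which fixes their direction. Hoxc4 stood at -7.39, -7.17 and -7.68 in LG epithelium, against 0.52, -0.03 and -0.95 in eyelid epithelium, and was at least 31.7-fold lower. Hoxa3 was at least 17.6-fold lower. In eyelid mesenchyme these genes averaged -3.27 (Hoxc4) and -5.26 (Hoxa3), below eyelid epithelium. Irx4 stood at -3.35, -2.61 and -4.40 in LG epithelium, against 2.59, 2.46 and 1.56 in eyelid epithelium (-5.65 ± 0.42), whereas its relatives Irx1 (3.10 ± 0.37) and Irx6 (2.02 ± 0.51) were higher. Pax3 was lower by -4.36 ± 0.28 and Dlx5 by -3.52 ± 0.55.

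Genes of eyelid closure, where EGF-family ligands and activin move the lid edge, had 13 of 27 measured members lower in LG epithelium and 4 higher. Over all genes 18.9 percent were lower and 29.8 percent higher. Ereg (epiregulin) was at least 27.4-fold lower, at -7.12, -6.95 and -7.45 in LG epithelium against -0.26, -0.40 and -0.43 in eyelid epithelium. Areg (-2.83 ± 0.43, with 1 of 3 LG arrays well above background), Hbegf (-1.80 ± 0.28), Btc (-1.92 ± 0.29) and Inhba, the activin subunit gene (-2.81 ± 0.46), were lower. Inhbb, which codes for the other activin subunit, was higher by 1.09 ± 0.22, and LG minus HG was 2.03 for it (adjusted p = 6.42e-06). Interleukins and their receptors numbered 47 measured genes, 25 of them lower in LG epithelium and 2 higher, led by the interleukin-36 family genes listed as Il1f5 and Il1f6, at least 315-fold and 163-fold lower.

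Notch and retinoic acid genes went both ways. Of 20 Notch genes 6 were higher and 8 lower, and of 21 retinoic acid genes 8 were higher and 7 lower, beside 29.8 percent higher and 18.9 percent lower among all genes. Hey1, a target and repressor, stood at 3.96, 3.87 and 3.72 in LG epithelium, against -0.65, -0.83 and -0.24 in eyelid epithelium (4.42 ± 0.26), with LG minus HG at 1.72 (adjusted p = 0.000221). Notch1 (-1.83 ± 0.55), the ligand gene Jag1 (-1.61 ± 0.21) and Nrarp (-1.99 ± 0.28), another target, were lower, and without scaling 4 members were called lower in place of 8.

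Among retinoic acid genes Stra6, the receptor that takes up retinol, stood at 3.17, 3.25 and 3.63 in LG epithelium, against -2.94, -3.17 and -2.04 in eyelid epithelium (6.07 ± 0.34). The synthesising enzyme gene Aldh1a3 was higher by 3.8 ± 0.34 and the receptor gene Rarb by 1.90 ± 0.23, while Cyp26b1, which degrades retinoic acid, was lower by -5.33 ± 0.39. With median scaling or without scaling, 3 members were called lower in place of 7. Stra6 averaged 3.32 in LG mesenchyme and Rarb 3.66, at or above their epithelial levels, and the part of mesenchyme in these differences was not tested.

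**Figure D5:**
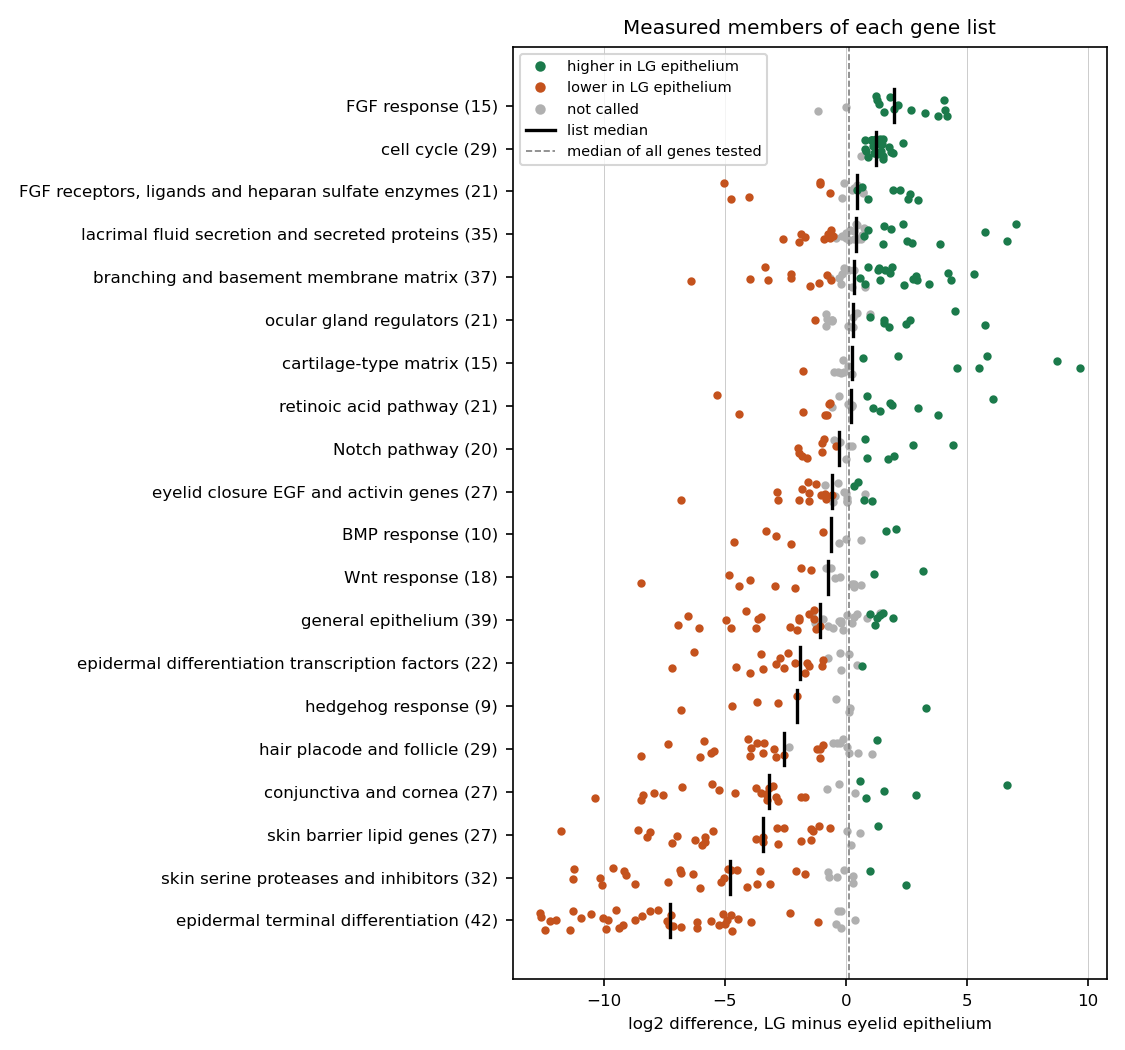
Log2 difference, LG minus eyelid epithelium, for each measured member (points, with the number measured in brackets) of the 20 pathway and tissue lists, coloured by call, with list medians as black bars and the median of all genes tested as a dashed line at 0.15. The FGF response and cell cycle lists lie to the right with medians of 1.98 and 1.23, and the epidermal differentiation list lies farthest to the left with a median of -7.27.

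Markers of other cells differed between the tissues in part. Pigment cell genes were lower in LG epithelium: Dct stood at -4.92, -4.01 and -3.31 in LG epithelium, against 6.14, 6.07 and 6.51 in eyelid epithelium (-10.32 ± 0.41, with 2 of 3 LG arrays well above background), Pmel was lower by -6.75 ± 0.33, Mlana by -6.06 ± 0.39, and Tyrp1 was at least 136-fold lower. Fabp7 (5.32 ± 0.40) and S100b (2.23 ± 0.40), which Schwann cells also express, were higher with Sox10. The genes Foxd3 and Cdh19, also of Schwann cells, did not pass the filter in either epithelium, these 2 being named after their values were seen. Of 10 measured skeletal muscle genes, from 20 listed, 6 were lower and 1 was higher, beside 18.9 and 29.8 percent of all genes. Only 5 were well above background on all LG arrays, and the filter fixed the direction of the others. Summed levels of the list were 5.60 to 6.28 in LG epithelium and 6.71 to 12.1 in eyelid epithelium. Of 11 measured genes of lens, retina and pigment epithelium 3 were lower, 1 was higher and 7 were not called. Cryaa, of the lens, was lower by -5.20 ± 0.40, and Rgr, of the retina and pigment epithelium, was at least 18.5-fold higher.

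Of 24 mesenchymal genes 7 were higher and 5 lower, shares near the 29.8 and 18.9 percent of all genes, against 4 and 9 without slide 1. Dcn (decorin), of fibroblasts, stood at 4.48, 3.96 and 4.24 in LG epithelium, against 7.12, 7.54 and 7.38 in eyelid epithelium (-3.12 ± 0.27), and Thy1 was lower by -5.80 ± 0.30, while Pdgfrb (1.83 ± 0.28), Fbn1 (1.57 ± 0.17) and Col1a1 (1.31 ± 0.35) were higher. Of 15 endothelial genes 7 were higher, against 29.8 percent of all genes, with Cdh5 higher by 1.56 ± 0.39. None was called lower by limma (1 at an unadjusted p under 0.05). Their summed levels were 22.3 to 32.6 in LG epithelium and 17.7 to 21.9 in eyelid epithelium. The vessel collagen genes Col4a1 and Col4a2 and the laminin gene Lama4 were higher as well. The part of endothelium in those differences was not tested.

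Of 9 erythroid genes 6 were higher, against 29.8 percent of all genes. Their summed levels were 948 to 1850 in LG epithelium and 249 to 568 in eyelid epithelium. Hbb-bs stood at 6.0, 4.47 and 2.91 in LG epithelium, against 1.76, 2.44 and 2.06 in eyelid epithelium, and slide 1 held the highest LG array and the lowest eyelid array. Without slide 1 none of the 9 was called in either direction by limma, and 1 was higher at an unadjusted p under 0.05. Immune genes were called for 1 of 14, Cd74 (1.55 ± 0.37), with summed levels of 7.55 to 10 in LG epithelium and 9.16 to 11.2 in eyelid epithelium.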

How the data were processed

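Total RNA was labelled with Cy3 and hybridised to 1-colour Agilent mouse arrays, per the labels' protocols. Each deposited scanner file lists the intensity of every spot after background subtraction by the authors' feature extraction software (gProcessedSignal). Version 11.5.1.1 is named in the submitters' processing notes, but the file headers of slide 1 record 11.0.1.1. The authors' deposited series matrix holds the same intensity without scaling between arrays.

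Outlier spots were left out, spots of a probe averaged, and each array's log2 75th percentile over probes other than controls subtracted. Of 55681 probes 27509 matched 20887 symbols by accession in RefSeq gene annotation, and the others were not used here. A probe was kept when well above background on all arrays of either group, by at least a 0.5 share of its spots, and the brightest such probe stood for its gene. All 23 arrays and 8 groups entered 1 limma fit (limma 3.58.1, R 4.3.3). Its two-sided p-values were adjusted by the Benjamini-Hochberg method over 14936 genes, and an adjusted p under 0.05 was called. The fit was tested on simulated data. Lists were described by counts and medians, without a set test. Figures were drawn with matplotlib 3.10.9.

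Residuals of arrays with the same replicate number correlated at 0.207, 0.367 and 0.459, all over 0.1. LG replicate 2 and eyelid replicate 1 also exceeded 0.1, at 0.178, so these values do not settle whether the numbers pair the samples. Any pairing would come from the labels' number, which is also the slide, and the 2 cannot be told apart. The main fit did not use it, and the replicate block was an alternative.

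Named genes were the 15 largest and 15 most negative called differences without overlap between groups, up to 6 called members a direction of each of 29 lists and up to 4 of each gene family, and all measured gland regulators and FGF response genes with a few epithelial markers. The lists and comparisons were chosen with earlier results of these data known. Normexp correction, an alternative, used the median spot signal. Other alternatives were scalings, filters, arrays in the fit, the replicate block, probe choice and left-out arrays. Some of the genes that the naming rule selects are not reported here.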

Additional observations from a re-analysis of the deposited data

How the results depend on the processing

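No gene named here and called between LG and eyelid epithelium changed its direction under any of the 19 alternatives that measured it. This leaves out Krt19 and genes named only as ends or members of gene clusters, which were not recomputed. The filter on all 6 arrays does not measure genes dim in either tissue. The counts of 4449 higher and 2819 lower genes became 5261 and 3288 with the replicate block over 23 arrays, and the block changed no other call of a named gene than that of Foxi1. With median scaling 1809 genes were lower, and without scaling 1665 were lower and 3115 were at least 2-fold higher. Leaving out 1 array gave 3697 to 4222 genes higher, 2530 to 2689 lower, 1793 to 1992 at least 2-fold higher and 1839 to 1943 at least 2-fold lower. Beside the losses given with the results, calls were lost in 1 to 3 of the alternatives for Bmp7, Ccn2, Cdk1, Col1a1, Epcam, Hapln1, Hbb-bs, Notch1, Runx2 and St14. A filter that asked for signal above background on all 6 arrays removes genes dim in either tissue and left 21 in place of 37 lower epidermal differentiation genes.

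For LG against HG epithelium, whose alternatives were added after seeing the data, 480 genes higher and 459 lower became 255 and 299 with median scaling, 303 and 177 without scaling, and 863 and 803 with the 18 embryonic arrays alone. Without slide 1 there were 274 higher. Leaving out 1 array of LG, HG or eyelid epithelium gave 343 to 480 higher and 301 to 474 lower, with the fewest lower without HG replicate 3. The cause of these changes was not tested.

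Some genes without a call gained one, Foxi1 in 5 alternatives, Pax6 in 4, and Bhlha15, Egr1, Eya4, Foxc2, Nkx2-3, Runx1 and Runx3 in 1 or 2. Others without a call changed sign. Ascl3 was at -0.10 with normexp and between -0.01 and 0.51 without 1 array. Spred2 was at 0.00 with normexp, 0.21 with median scaling, 0.29 without scaling and between -0.25 and 0.13 without 1 array. Eya1 was at -0.12 with quantile normalization and between -0.03 and 0.24 without 1 array. Cdh1 was at 0.01 without scaling. Barx2 was at -0.18 without slide 1, and between -0.17 and 0.99 without 1 array.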
